A study of Mus musculus with 12 samples.

Results

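The collagen chains made outside cartilage were examined as a set of 33 genes chosen by name, of 49585 genes in the count table, without use of any measured value. Members of the set can be made in cartilage as well, Col11a1 and Col27a1 among them. All 33 had counts, and 31 of them were among the 16318 genes kept by a filter on low counts. Col4a4 and Col20a1 did not pass that filter and were not tested. The 33 genes were described in 8 classes and a remainder: 9 fibrillar chains, 6 chains of the basement membrane network, 2 of the hexagonal network, 3 beaded chains, 1 anchoring fibril chain, 5 fibril-associated chains, 3 membrane chains, 2 multiplexins and 2 others.

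RNA was sequenced from osteoblast cultures grown from the calvariae of neonatal C57BL/6J mice, with 12 libraries that fall into 4 groups of 3. The groups were day 3 Bcl3-/-, day 3 wild-type (WT), day 1 Bcl3-/- and day 1 WT, where the day counts from the start of osteogenic medium. All groups, WT included, received 50 µg/mL ascorbic acid and 2 mM β-glycerophosphate, so that no untreated culture was compared. Ascorbic acid is the cofactor of the prolyl hydroxylases that let collagen chains fold. Neither the labels nor the methods name a Cre or promoter that would limit the knockout to osteoblasts, and each culture was a mixture of cells released from pooled calvariae by collagenase. BCL3 is a nuclear partner of NF-κB subunits, and the comparison asked how its loss changed gene expression as osteoblasts began to differentiate. The description of each culture in the labels carries the same code on day 3 and day 1, and p-values measure only the spread between these cultures.

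Collagen molecules are built of chains wound around each other, and the chains a cell makes decide which molecules it can assemble. In bone, fibrils of type I collagen form the matrix that later takes up mineral. Minor fibrillar chains start these fibrils and set their width, fibril-associated chains coat them, and network and beaded collagens link cells to the matrix around them.

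Bcl3 itself was read in every library. It had 10.2, 9.72 and 8.31 CPM (counts scaled to the normalised size of a library) in the libraries labelled day 3 Bcl3-/-, against 14.8, 15.9 and 12.8 CPM in day 3 WT. It had 17.5, 19.7 and 19.2 CPM in those labelled day 1 Bcl3-/-, against 18.0, 21.8 and 17.8 CPM in day 1 WT. The groups did not overlap on day 3, with a log2 fold change of -0.62 (SE 0.12, adjusted p = 0.00863), but they overlapped on day 1, with -0.03 (SE 0.12, adjusted p = 0.887). Counts were made per gene, so whether these reads came from the deleted stretch cannot be told from them. Bcl3-/- therefore names the libraries labelled so throughout, and every direction by genotype rests on the labels. Gene counts per library ran from 20009732 to 41953891. The osteoblast markers Runx2 (45.6 to 60.3 CPM) and Sparc (4154 to 9841 CPM) were read in all libraries, whereas the late markers Bglap, Dmp1 and Phex stayed at or below 3.92 CPM. Other osteoblast markers ranged more widely. Alpl was at 10.6 to 125 CPM, Sp7 at 10.2 to 70.6 and Ibsp at 0.678 to 24.1. Spp1 was at 1094 to 3799 CPM and Bglap2 at 0.271 to 7.55. The cartilage chain Col2a1 reached 176 to 2310 CPM. In such bulk samples, fewer cells of a type and less RNA per cell cannot be told apart.

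The promoters shown here belong to the members that were higher in the Bcl3-/- libraries on both days and have an entry in the RefSeq promoter table (Col16a1, Col23a1, Col24a1, Col27a1 and Col28a1), to Col3a1, and to Col11a1, the member whose change over time differed by genotype. Each line gives the 200 bases before the RefSeq start on the strand of the gene, in build GRCm38.p6, and capitals mark the letters searched for on both strands: the TATA box (TATAAA), the box CCAAT, read as ATTGG on the other strand, the GC box (GGGCGG, or CCGCCC on the other strand) and the κB consensus.
Col16a1 promoter, chr4:130047640-130047839, plus strand: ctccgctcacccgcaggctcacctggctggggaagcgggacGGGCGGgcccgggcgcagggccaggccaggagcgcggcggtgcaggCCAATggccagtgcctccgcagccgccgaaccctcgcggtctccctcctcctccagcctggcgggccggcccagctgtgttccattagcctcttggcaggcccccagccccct
Col23a1 promoter, chr11:51289720-51289919, plus strand: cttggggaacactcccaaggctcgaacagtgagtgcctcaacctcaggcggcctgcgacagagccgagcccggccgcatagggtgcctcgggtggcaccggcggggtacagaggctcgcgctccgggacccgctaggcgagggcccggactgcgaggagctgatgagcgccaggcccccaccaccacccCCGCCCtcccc
Col24a1 promoter, chr3:145292272-145292471, plus strand: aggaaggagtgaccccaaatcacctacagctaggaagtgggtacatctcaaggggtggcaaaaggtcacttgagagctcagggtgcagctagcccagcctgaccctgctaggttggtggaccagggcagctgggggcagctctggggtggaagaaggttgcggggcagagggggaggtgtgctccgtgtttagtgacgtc
Col27a1 promoter, chr4:63215212-63215411, plus strand: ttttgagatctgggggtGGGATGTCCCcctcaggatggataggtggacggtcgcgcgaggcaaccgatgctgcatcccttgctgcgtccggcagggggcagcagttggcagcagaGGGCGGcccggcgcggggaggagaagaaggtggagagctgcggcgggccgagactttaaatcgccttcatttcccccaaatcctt
Col28a1 promoter, chr6:8192618-8192817, minus strand: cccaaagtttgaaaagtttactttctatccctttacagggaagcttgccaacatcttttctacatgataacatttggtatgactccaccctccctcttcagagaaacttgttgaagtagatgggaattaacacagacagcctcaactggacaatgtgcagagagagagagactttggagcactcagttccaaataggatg
Col3a1 promoter, chr1:45311338-45311537, plus strand: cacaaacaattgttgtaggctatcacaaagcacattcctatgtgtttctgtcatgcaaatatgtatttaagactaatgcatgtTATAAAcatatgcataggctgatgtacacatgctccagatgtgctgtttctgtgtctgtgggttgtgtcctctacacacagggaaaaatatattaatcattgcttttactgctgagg
Col11a1 promoter, chr3:114030340-114030539, plus strand: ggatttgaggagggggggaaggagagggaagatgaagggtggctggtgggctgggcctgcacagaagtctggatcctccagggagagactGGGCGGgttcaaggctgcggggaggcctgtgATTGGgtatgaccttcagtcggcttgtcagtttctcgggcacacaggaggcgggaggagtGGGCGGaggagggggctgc
In these stretches Col3a1 held a TATAAA at positions -117 to -112 relative to its start, a match of letters that does not show a working TATA box. Col16a1 and Col11a1 held a CCAAT and a GGGCGG, and Col23a1 held a GGGCGG. Col27a1 held a GGGCGG and a match to the κB consensus, the site that NF-κB dimers bind, at positions -183 to -174 relative to its start, on both strands. None of the searched letters was in the stretch shown for Col24a1 or Col28a1, which says only that they are not in this window. Over the 250 bases before the start, 26 of the 33 members had an entry. TATAAA was in 2 of the 26, against 12.4% of all 32851 promoters, CCAAT in 10, against 33.8%, GGGCGG in 16, against 32.7%, and the κB consensus in 3 (Col27a1, Col4a2 and Col6a2), against 7.25%. A promoter was counted once, whichever strand held the match. The Col27a1 stretch begins 1208 bases past the earliest GENCODE start of that gene, so it lies within the gene, in the first intron of a longer transcript. Part of the Col16a1 stretch lies in the first exon of an antisense transcript, Gm12963, in the GENCODE annotation.

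Collagen chains took a large share of all reads. The 33 genes took 10.0, 9.81 and 10.9% of gene counts in the day 3 Bcl3-/- libraries, against 9.33, 9.46 and 10.0% in day 3 WT. On day 1 they took 8.21, 8.67 and 8.43% in Bcl3-/-, against 4.79, 5.96 and 6.77% in WT. The day 1 WT libraries were thus below the other 9, and the day 1 Bcl3-/- libraries lay between them and both day 3 groups. Col1a1 alone made up 2.38 to 4.77% of gene counts over the 12 libraries, and the chains of types I and III together made up 77.3 to 86.0% of collagen reads.

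**Figure D1:**
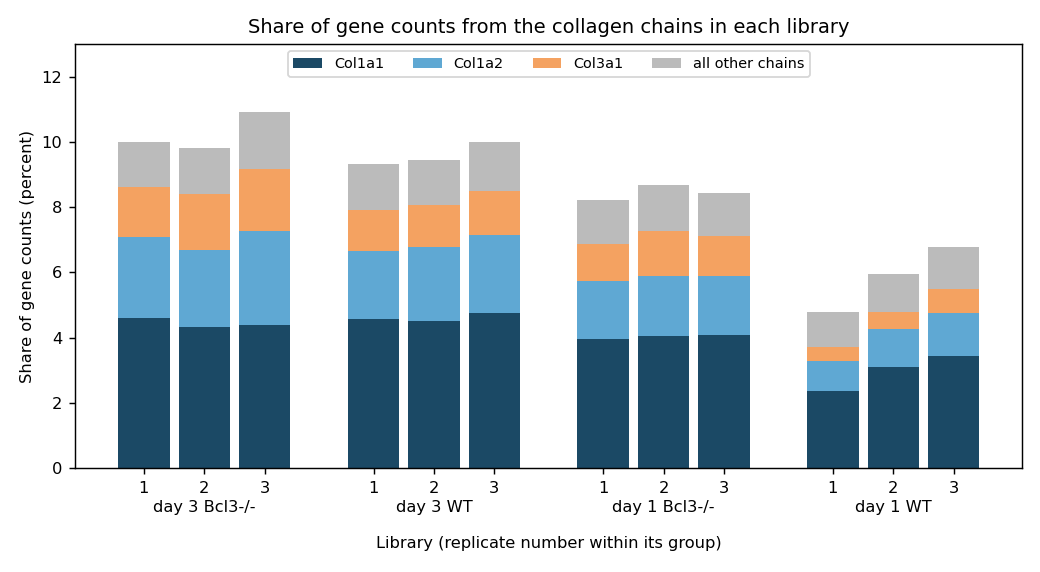
Share of gene counts (percent, vertical axis) taken by the collagen chains in each of the 12 libraries, as stacked bars for Col1a1, Col1a2, Col3a1 and all other chains, with 3 libraries a group. The day 1 WT bars end between 4.79 and 6.77%, below all others, and the day 3 Bcl3-/- bars reach 9.81 to 10.9%.

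Per kilobase of annotated exon, Col1a1, Col1a2, Col3a1 and Col6a1 were the 4 most abundant chains in every group, in that order. Col1a1 stood at 7023 ± 198 RPKM (CPM per kilobase, mean ± SD, n = 3) in day 3 Bcl3-/-, against 7236 ± 243 in day 3 WT, and at 6026 ± 144 in day 1 Bcl3-/-, against 4345 ± 824 in day 1 WT. At the other end, Col4a3, Col4a4, Col20a1, Col22a1 and Col25a1 stayed at or below 0.0733 RPKM on average in all groups. The order per length depends on which exons are counted, and the deposited FPKM list Col1a1 at 0 in 10 of the 12 libraries, so counts were used throughout.

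On day 1 the Bcl3-/- libraries held more of many chains than WT. Of the 31 members tested, 14 were higher and 1 was lower, whereas 9.03% of all genes were higher and 6.26% lower. The median log2 fold change of the members was 0.50, against 0.00 over all genes. On day 3, 7 members were higher and 2 lower, with 4.78% of all genes higher and 5.6% lower, and the median was 0.22, against 0.00. The 7 members higher on day 3 (Col24a1, Col27a1, Col14a1, Col16a1, Col23a1, Col26a1 and Col28a1) were all among the 14 of day 1, and Col4a1 was lower on both days. The libraries of the 2 days carry the same culture codes, so the 2 days may not be independent.

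Over time more members were higher than lower in both genotypes. In Bcl3-/-, 11 members were higher on day 3 and 2 were lower, with 16.2% of all genes higher and 17.2% lower and a median of 0.49, against 0.00 over all genes. In WT, 19 members were higher on day 3 and 1 was lower, with 20.6% of all genes higher and 17.9% lower and a median of 0.70, against 0.00. All 11 members that were higher in Bcl3-/- were among the 19 in WT. The difference between the changes over time, tested as an interaction, passed for 1 member, Col11a1, which was lower, with 0.95% of all genes lower and 0.172% higher. In the other direction 0 members passed in edgeR, and 0 had an unadjusted p under 0.05 or passed in DESeq2. With the culture as a replicate block, Col8a2 (log2 interaction -1.09, adjusted p = 0.0238) and Col14a1 (-1.36, adjusted p = 0.0158) passed too, 3 in all. Without day 1 WT replicate 3 the interaction passed for 6 members, with Col1a1 (adjusted p = 0.0456), Col3a1 (0.00651), Col8a2 (0.01), Col14a1 (0.0263) and Col26a1 (0.00859) added. The count over all genes rose in both settings. In the interaction 155 of 16318 genes were lower in the first fit, 239 of 16318 with the block, and 394 of 16722 without that library. The genotype comparison on day 1 and the change over time in WT share the day 1 WT libraries.

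**Figure D2:**
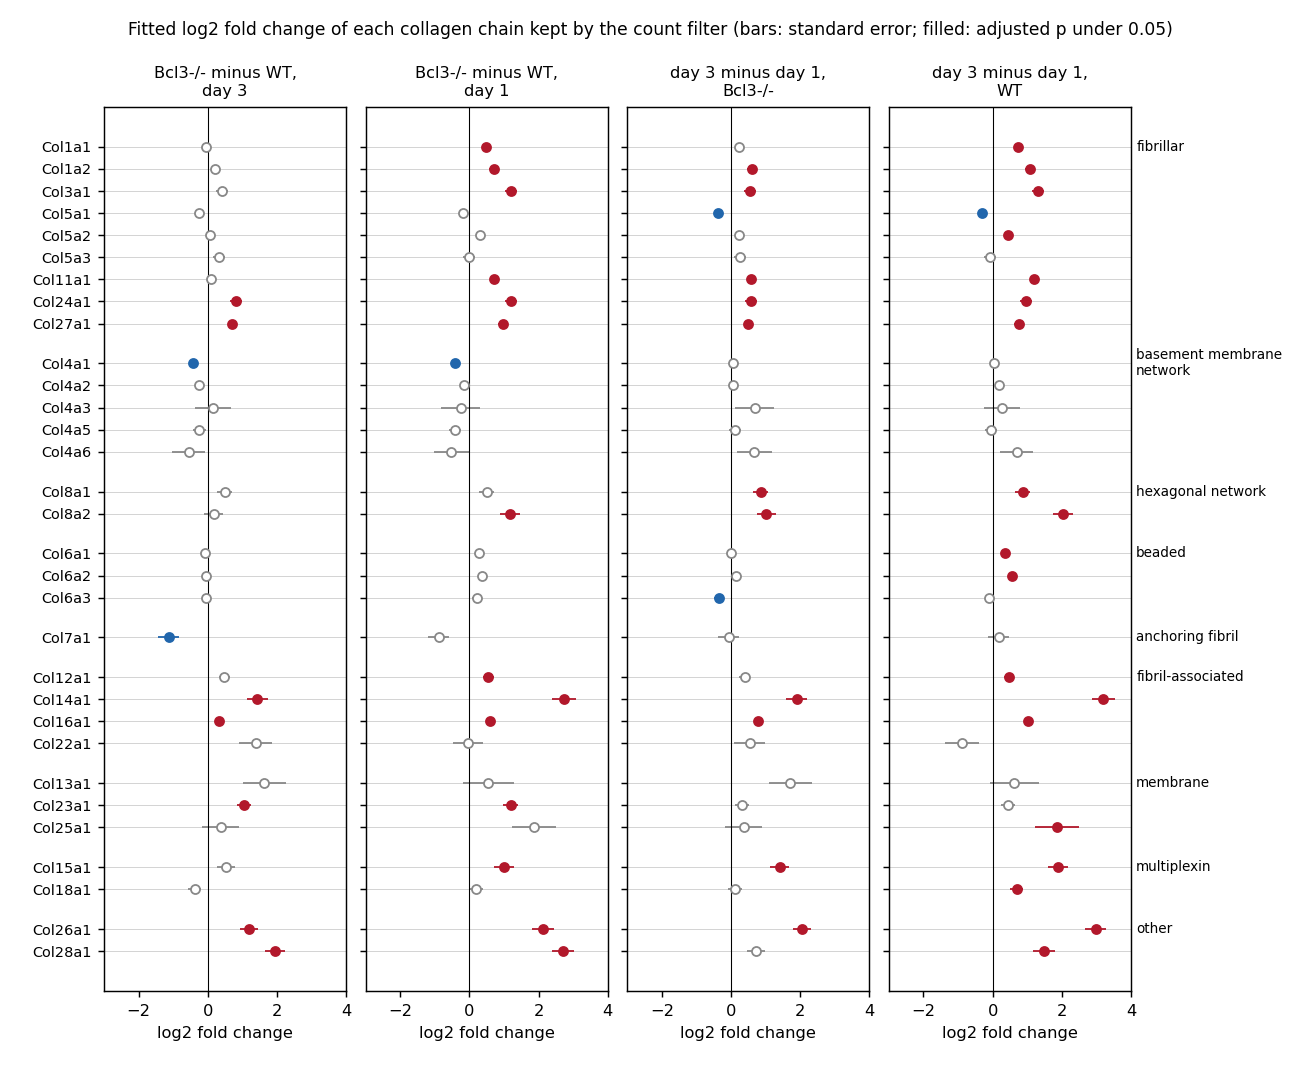
Fitted log2 fold change (horizontal axis, bars are standard errors) of the 31 collagen chains tested, one row a chain, grouped by class, for the genotype comparisons on day 3 and day 1 and the changes over time in Bcl3-/- and WT. Filled points passed an adjusted p of 0.05, red higher and blue lower: 7 and 2 on day 3, 14 and 1 on day 1, 11 and 2 in Bcl3-/- and 19 and 1 in WT.

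Lists of marker genes for cell types did not all go the way of the collagen counts. Of 10 markers of fibroblasts and tendon, 6 were higher and 1 was lower in Bcl3-/- than WT on day 1, and 4 were higher and 1 lower on day 3, beside 9.03% of all genes higher and 6.26% lower on day 1, and 4.78% higher and 5.6% lower on day 3. Their summed level was 2506 to 2925 CPM in day 3 Bcl3-/-, against 1707 to 2294 in day 3 WT, and 1405 to 1576 in day 1 Bcl3-/-, against 941 to 1322 in day 1 WT. Over time 7 of the 10 were higher in Bcl3-/- and 9 of the 10 in WT, beside 16.2 and 20.6% of all genes. Among them Tnmd, a tendon membrane protein, was at 108.9 to 846 CPM, whereas Pi16 was at or below 1.09 and Kera, at or below 1.26, was at 0 in some libraries. Of 10 osteoblast markers, 3 were higher and 1 lower in Bcl3-/- on each day, with a summed level of 10067 to 11456 CPM in day 3 Bcl3-/-, against 10038 to 12508 in day 3 WT, and 8678 to 10283 in day 1 Bcl3-/-, against 7090 to 9127 in day 1 WT. Most of this sum came from Sparc, at 4154 to 9841 CPM, and Spp1, at 1094 to 3799. The part of osteoblasts in the collagen differences was not tested. Of 9 endothelial markers, 6 passed the filter, of which 1 was higher in Bcl3-/- on day 3 and 2 on day 1, and none was lower. Their summed level was 20.4 to 24.1 CPM in day 3 Bcl3-/-, against 9.82 to 12.4 in day 3 WT, and 10.5 to 14.1 in day 1 Bcl3-/-, against 6.58 to 7.30 in day 1 WT, with no overlap between genotypes on either day. Tek was at 1.90 to 17.2 CPM, whereas Kdr and Erg were at or below 2.46 CPM, Pecam1 and Cdh5 at or below 1.84, and Emcn, Vwf, Tie1 and Cldn5 at 0 in some libraries. The part of these cells was not tested either. Of 6 chondrocyte markers tested, 1 was lower in Bcl3-/- on day 3 and 1 was higher on day 1. Of 7 pericyte markers, 3 were higher and 1 lower on day 3, and 2 were higher and 1 lower on day 1. Of 4 skeletal muscle markers tested, 1 was higher on day 1. The shares of all genes given above apply to these counts too. Keratinocyte markers were at or below 1.36 CPM.

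Among the fibrillar chains, 6 of 9 were higher in Bcl3-/- than WT on day 1 and none was lower, beside 9.03% of all genes higher and 6.26% lower. Col1a1, the major chain of bone matrix (GRCm38 chr11:94936224-94953042, plus strand), had 47401, 44806 and 46061 CPM in day 3 Bcl3-/-, against 47045, 46164 and 49263 in day 3 WT. On day 1 it had 38524, 39741 and 40382 CPM in Bcl3-/-, against 22628, 29643 and 33272 in WT. All 3 day 1 WT libraries were below the other 9, and the day 3 groups overlapped. The log2 fold change between genotypes was 0.47 (SE 0.11, adjusted p = 0.016) on day 1 and -0.04 (SE 0.11, adjusted p = 0.848) on day 3. Over time it was 0.22 (SE 0.11, adjusted p = 0.158) in Bcl3-/-, although the day 3 and day 1 libraries did not overlap, and 0.74 (SE 0.11, adjusted p = 0.000368) in WT. The day 1 call was lost without replicate 2 or 3 of day 1 Bcl3-/-, or replicate 2 of day 1 WT (adjusted p = 0.0504 to 0.0703). In the fit of the compared libraries alone the change in Bcl3-/- passed, with an adjusted p of 0.0433.

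Col1a2, the partner of Col1a1 in type I collagen (chr6:4504814-4541544, plus strand), had 25359, 24440 and 30599 CPM in day 3 Bcl3-/-, against 21200, 23350 and 24367 in day 3 WT. Its day 1 values were 17164, 18050 and 17915 CPM in Bcl3-/-, against 8546, 11116 and 12944 in WT. No pair of groups overlapped in either comparison by genotype or over time. It was higher in Bcl3-/- on day 1, with a log2 fold change of 0.70 (SE 0.13, adjusted p = 0.00518), but not past the threshold on day 3, at 0.22 (SE 0.13, adjusted p = 0.321). Over time it was higher by 0.60 (SE 0.13, adjusted p = 0.0052) in Bcl3-/- and by 1.08 (SE 0.14, adjusted p = 8.69e-05) in WT.

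Col3a1, the chain of type III collagen of soft connective tissue (chr1:45311538-45349706, plus strand), had the largest genotype difference on day 1 among the 3 most abundant chains. It had 15824, 17724 and 19852 CPM in day 3 Bcl3-/-, against 12903, 13064 and 14115 in day 3 WT. On day 1 it had 10929, 13540 and 12231 CPM in Bcl3-/-, against 4031, 4898 and 7164 in WT, and the lowest Bcl3-/- library was above the highest WT library. The log2 fold change was 1.19 (SE 0.17, adjusted p = 0.00145) on day 1 and 0.41 (SE 0.17, adjusted p = 0.145) on day 3. Over time it was 0.54 (SE 0.17, adjusted p = 0.0294) in Bcl3-/- and 1.32 (SE 0.17, adjusted p = 0.000122) in WT. The call over time in Bcl3-/- was lost without replicate 2 or 3 of day 3 Bcl3-/-, or replicate 1 or 3 of day 1 Bcl3-/- (adjusted p = 0.0654 to 0.104).

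Col11a1, which starts and thins heterotypic fibrils, was higher in Bcl3-/- on day 1 and was the one member whose interaction passed. It had 596, 622 and 741 CPM in day 3 Bcl3-/-, against 592, 613 and 631 in day 3 WT, and these groups overlapped. On day 1 it had 419, 473 and 418 CPM in Bcl3-/-, against 263, 264 and 272 in WT, with no overlap. The log2 fold change was 0.71 (SE 0.08, adjusted p = 0.000591) on day 1 and 0.09 (SE 0.08, adjusted p = 0.519) on day 3, and over time it was 0.58 (SE 0.08, adjusted p = 0.000324) in Bcl3-/- and 1.20 (SE 0.08, adjusted p = 6.34e-06) in WT. The interaction, the change over time in Bcl3-/- minus that in WT, was -0.62 (SE 0.12, adjusted p = 0.0337). This call was lost without replicate 2 of day 3 Bcl3-/-, replicate 1, 2 or 3 of day 3 WT, replicate 1, 2 or 3 of day 1 Bcl3-/-, or replicate 1 or 2 of day 1 WT (adjusted p = 0.0661 to 0.128), that is without any one of 9 of the 12 libraries.

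Col24a1 and Col27a1 are low-abundance fibrillar chains known from forming bone and cartilage. Col24a1 had 12.5, 12.1 and 16.8 CPM in day 3 Bcl3-/-, against 6.61, 7.83 and 9.06 in day 3 WT, and 8.39, 10.5 and 8.76 CPM in day 1 Bcl3-/-, against 4.57, 3.48 and 3.99 in day 1 WT. The Bcl3-/- libraries were above the WT libraries on each day, with log2 fold changes of 0.81 (SE 0.17, adjusted p = 0.0105) on day 3 and 1.21 (SE 0.17, adjusted p = 0.00141) on day 1. Over time Col24a1 was higher by 0.58 (SE 0.16, adjusted p = 0.0176) in Bcl3-/- and by 0.98 (SE 0.17, adjusted p = 0.000852) in WT. Without day 3 WT replicate 1 its day 3 genotype call was lost (adjusted p = 0.0502), and its call over time in Bcl3-/- was lost without replicate 3 of day 3 Bcl3-/-, or replicate 1 or 3 of day 1 Bcl3-/- (adjusted p = 0.0573 to 0.0639). Col27a1 had 13.3, 15.3 and 14.2 CPM in day 3 Bcl3-/-, against 7.78, 10.0 and 8.65 in day 3 WT, and 9.81, 10.2 and 10.6 CPM in day 1 Bcl3-/-, against 4.79, 5.90 and 4.93 in day 1 WT. It too did not overlap between genotypes on either day, with 0.69 (SE 0.12, adjusted p = 0.00494) on day 3 and 0.96 (SE 0.12, adjusted p = 0.000897) on day 1, and it was higher over time by 0.49 (SE 0.12, adjusted p = 0.00861) in Bcl3-/- and 0.75 (SE 0.12, adjusted p = 0.000527) in WT.

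The chains of type V, which nucleate type I fibrils, were called in opposite directions over time. Col5a1 was lower on day 3 than day 1 in both genotypes, by a log2 fold change of -0.38 (SE 0.10, adjusted p = 0.0124) in Bcl3-/- and -0.31 (SE 0.10, adjusted p = 0.0289) in WT. Its partner Col5a2 was at 0.23 (SE 0.10, adjusted p = 0.0887) over time in Bcl3-/- and was higher on day 3 in WT, at 0.45 (SE 0.10, adjusted p = 0.00359). Neither passed between genotypes: Col5a1 was at -0.26 on day 3 and -0.19 on day 1, and Col5a2 at 0.08 and 0.29. Col5a3 passed in no comparison, with 72.9 to 92.0 CPM in day 3 Bcl3-/-, against 63.5 to 70.2 in day 3 WT. The call of Col5a1 in Bcl3-/- was lost without replicate 2 of day 3 Bcl3-/- (adjusted p = 0.0561), and that in WT without replicate 2 or 3 of day 3 WT, or replicate 2 of day 1 WT (adjusted p = 0.0546 to 0.129), or in the compared libraries alone (adjusted p = 0.0649). Without day 3 Bcl3-/- replicate 3 (adjusted p = 0.0462) or day 3 WT replicate 3 (0.0496), Col5a1 passed as lower in Bcl3-/- on day 3, and Col5a2 passed as higher on day 1 in DESeq2 (0.0453) and without day 3 Bcl3-/- replicate 3 (0.00542).

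No chain of the basement membrane network was called higher in Bcl3-/- than WT. Of the 5 tested, 1, Col4a1, was lower on each day, beside 5.6% of all genes on day 3 and 6.26% on day 1. The median log2 fold change of the 5 was -0.25 on day 3 and -0.41 on day 1. These medians include Col4a3 and Col4a6, both at or below 2.85 CPM, and Col4a3 was at 0.16 on day 3. Col4a1, which with Col4a2 makes the collagen of nearly all basement membranes (chr8:11198423-11312826, minus strand), had 829, 861 and 943 CPM in day 3 Bcl3-/-, against 1296, 1132 and 1084 in day 3 WT. The day 1 libraries had 911, 843 and 783 CPM in Bcl3-/-, against 1089, 1216 and 1101 in WT. All 6 Bcl3-/- libraries were below all 6 WT libraries. The log2 fold change was -0.42 (SE 0.09, adjusted p = 0.0117) on day 3 and -0.42 (SE 0.09, adjusted p = 0.00738) on day 1, and over time it was 0.05 in Bcl3-/- and 0.04 in WT, neither past the threshold. The day 3 call was lost without replicate 2 of day 3 Bcl3-/-, or replicate 1 of day 3 WT (adjusted p = 0.0529 to 0.0551), and in the fit of the compared libraries alone (adjusted p = 0.0509).

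Col4a2 is transcribed away from Col4a1 from a shared promoter on chromosome 8, where the annotated genes overlap by 22 bases at their starts. It had a log2 fold change of -0.25 (SE 0.09, adjusted p = 0.111) on day 3 and -0.15 (SE 0.09, adjusted p = 0.334) on day 1, which did not pass. The minor chains of this network, which replace Col4a1 and Col4a2 in the kidney, lung and other specialised membranes, also lie in head-to-head pairs, with 71 bases between Col4a3 and Col4a4 on chromosome 1 and 1308 between Col4a5 and Col4a6 on chromosome X. Col4a5 was at 68.6 to 97.3 CPM in day 3 Bcl3-/-, against 76.8 to 122 in day 3 WT, whereas its neighbour Col4a6 was at or below 2.85 CPM in every library. Col4a3, Col4a5 and Col4a6 passed in no comparison by the fit of all libraries. On day 1 Col4a5 did not overlap between genotypes, at 71.1 to 72.8 CPM in Bcl3-/-, against 85.9 to 111 in WT. Its log2 fold change there was -0.41 (SE 0.18, adjusted p = 0.147), and it passed in the compared libraries alone (adjusted p = 0.0204). Col4a6 passed as higher over time in WT without day 3 WT replicate 3 (adjusted p = 0.0385).

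In the hexagonal network, the short chains known from vessel walls and the cornea, both members were higher over time. Col8a2 had 787, 732 and 990.1 CPM in day 3 Bcl3-/-, against 599, 671 and 967 in day 3 WT, and these groups overlapped. On day 1 it had 425, 350.1 and 461 CPM in Bcl3-/-, against 127, 132 and 287 in WT, where replicate 3 of WT was well above the other two. Its log2 fold change was 1.18 (SE 0.28, adjusted p = 0.016) by genotype on day 1, 1.02 (SE 0.28, adjusted p = 0.0157) over time in Bcl3-/- and 2.03 (SE 0.29, adjusted p = 0.000214) in WT. The genotype call was lost without replicate 3 of day 1 Bcl3-/-, or replicate 1 or 2 of day 1 WT (adjusted p = 0.0617 to 0.0783), and that over time in Bcl3-/- without replicate 2 of day 1 Bcl3-/- (adjusted p = 0.0656). Col8a1, its partner, was higher over time by 0.86 (SE 0.22, adjusted p = 0.0103) in Bcl3-/- and 0.87 (SE 0.22, adjusted p = 0.00788) in WT, and by genotype on day 1 it was at 0.50 (SE 0.22, adjusted p = 0.15). That last comparison passed without day 1 WT replicate 3, with an adjusted p of 0.0254.

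The beaded chains of type VI, which build microfibrils around cells, did not pass between genotypes, though some alternatives called them on day 1. Col6a1 had 1564, 1613 and 1746 CPM in day 3 Bcl3-/-, against 1732, 1816 and 1681 in day 3 WT, and 1605, 1755 and 1550 in day 1 Bcl3-/-, against 1136, 1325 and 1581 in day 1 WT. Col6a2 had 1132, 1148 and 1323 CPM in day 3 Bcl3-/-, against 1200, 1311 and 1201 in day 3 WT, and 1060, 1163 and 1015 in day 1 Bcl3-/-, against 680.0, 814 and 1018 in day 1 WT. In both, the genotypes overlapped on each day, and the day 1 WT libraries were below the day 3 WT libraries. Without day 1 WT replicate 3, Col6a1 (adjusted p = 0.00914) and Col6a2 (0.00506) passed as higher in Bcl3-/- on day 1. With no count filter both passed as well (0.0396 for Col6a1 and 0.0136 for Col6a2), and Col6a2 passed in DESeq2 (0.0395). Col6a3 had 1014, 1001 and 1258 CPM in day 3 Bcl3-/-, against 1157, 1110 and 1122 in day 3 WT, and 1365, 1484 and 1344 in day 1 Bcl3-/-, against 973, 1211 and 1447 in day 1 WT. Over time Col6a1 and Col6a2 were higher in WT, at 0.37 (SE 0.10, adjusted p = 0.014) and 0.56 (SE 0.12, adjusted p = 0.0035), whereas Col6a3 was lower in Bcl3-/-, at -0.36 (SE 0.13, adjusted p = 0.0466). In WT the call of Col6a1 ended without replicate 1 or 2 of day 1 WT (adjusted p = 0.0633 to 0.0778). That of Col6a3 was lost without replicate 1 or 2 of day 3 Bcl3-/-, replicate 1, 2 or 3 of day 3 WT, replicate 1, 2 or 3 of day 1 Bcl3-/-, or replicate 2 of day 1 WT (adjusted p = 0.0564 to 0.151).

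Col7a1, the chain of the anchoring fibrils that tie epithelia to the dermis, was lower in Bcl3-/- than WT on day 3. It had 13.8, 13.3 and 21.1 CPM in day 3 Bcl3-/-, against 48.5, 30.0 and 26.2 in day 3 WT, and 15.7, 19.8 and 14.6 in day 1 Bcl3-/-, against 40.7, 34.5 and 17.7 in day 1 WT. The genotypes did not overlap on day 3, at a log2 fold change of -1.13 (SE 0.31, adjusted p = 0.0366), and overlapped on day 1, at -0.89 (SE 0.30, adjusted p = 0.0696). The day 3 call was lost without replicate 1 or 2 of day 3 Bcl3-/-, replicate 1 or 2 of day 3 WT, or replicate 1 or 3 of day 1 Bcl3-/- (adjusted p = 0.052 to 0.166), in the fit of the compared libraries alone (adjusted p = 0.0534), and on log2 FPKM (adjusted p = 0.169 to 0.323). On day 1 it passed without day 1 WT replicate 3 (0.00847) and in DESeq2 (0.0164). Col7a1 did not pass over time.

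Of the 4 fibril-associated chains tested, 2 were higher in Bcl3-/- on day 3 and 3 on day 1, beside 4.78 and 9.03% of all genes. Col14a1, which binds the surface of type I fibrils in tendon, skin and other dense tissue (chr15:55307750-55520803, plus strand), had 187, 267 and 269 CPM in day 3 Bcl3-/-, against 65.2, 76.4 and 126 in day 3 WT. For day 1 the values were 54.2, 78.4 and 61.4 CPM in Bcl3-/-, against 6.24, 7.38 and 15.2 in WT. The Bcl3-/- libraries were above the WT libraries on each day without overlap. Its log2 fold change by genotype was 1.43 (SE 0.31, adjusted p = 0.0127) on day 3 and 2.73 (SE 0.33, adjusted p = 0.000751) on day 1, and over time it was 1.90 (SE 0.31, adjusted p = 0.000767) in Bcl3-/- and 3.20 (SE 0.34, adjusted p = 2.97e-05) in WT. The day 3 genotype call was lost without replicate 2 of day 3 Bcl3-/-, or replicate 1 of day 3 WT (adjusted p = 0.0515 to 0.0622). The interaction of -1.30 did not pass, at an adjusted p of 0.227.

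Col16a1, a minor chain found beside fibrils and microfibrils, passed in all 4 comparisons. It had 617, 604 and 771 CPM in day 3 Bcl3-/-, against 505, 517 and 554 in day 3 WT, and 385, 391 and 391 in day 1 Bcl3-/-, against 239, 255 and 277 in day 1 WT. Both day 3 groups were above both day 1 groups, and on each day the Bcl3-/- libraries were above those of WT, with no overlap. The genotype differences were 0.34 (SE 0.09, adjusted p = 0.036) on day 3 and 0.60 (SE 0.09, adjusted p = 0.00183) on day 1, and the changes over time 0.77 (SE 0.09, adjusted p = 8.74e-05) in Bcl3-/- and 1.03 (SE 0.09, adjusted p = 1.3e-05) in WT. The day 3 genotype call was lost without replicate 3 of day 3 Bcl3-/-, or replicate 1 or 2 of day 3 WT (adjusted p = 0.0777 to 0.136), and in the fit of the compared libraries alone (adjusted p = 0.094). Col12a1, which also decorates type I fibrils, was higher in Bcl3-/- on day 1, at 0.55 (SE 0.16, adjusted p = 0.033), and higher over time in WT, at 0.48 (SE 0.16, adjusted p = 0.0305). Between genotypes on day 3 Col12a1 was at 0.47 (SE 0.16, adjusted p = 0.0758) without overlap. That difference passed in DESeq2 (adjusted p = 0.03065) and with no count filter (0.0137). Its day 1 genotype call was lost without replicate 1, 2 or 3 of day 1 Bcl3-/-, or replicate 1 or 2 of day 1 WT (adjusted p = 0.0572 to 0.132), and its call over time without replicate 2 or 3 of day 3 WT, or replicate 1 or 2 of day 1 WT (adjusted p = 0.0532 to 0.124). Col22a1, of muscle and tendon junctions, stayed at or below 0.736 CPM and passed in none of the 4 comparisons, although with the culture as a replicate block it passed between genotypes on day 3 (1.63, adjusted p = 0.04998).

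**Figure D3:**
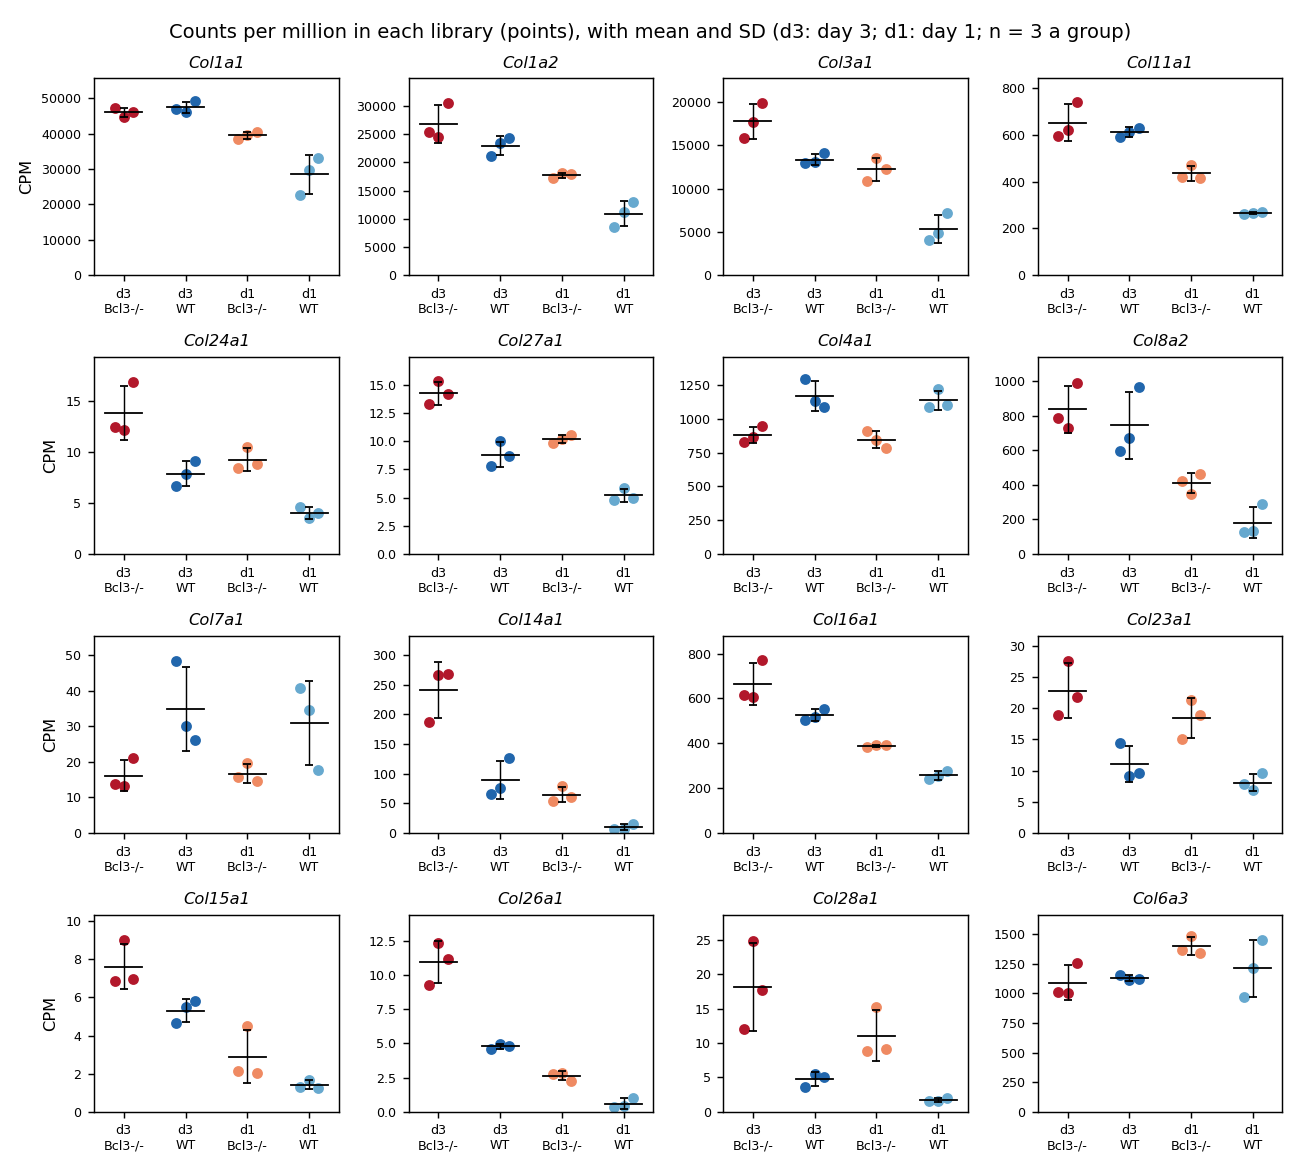
CPM (vertical axes, each from 0) of 16 collagen chains in every library, as points, with the mean and SD of the 3 libraries of each group, in the order day 3 Bcl3-/-, day 3 WT, day 1 Bcl3-/- and day 1 WT. Col1a1, Col1a2 and Col3a1 are lowest in day 1 WT, Col14a1 reaches 187 to 269 in day 3 Bcl3-/- and 6.24 to 15.2 in day 1 WT, and Col4a1 is lower in Bcl3-/- on both days.

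The membrane chains span the plasma membrane and were all scarce. Col23a1 had 18.9, 27.6 and 21.8 CPM in day 3 Bcl3-/-, against 14.4, 9.18 and 9.56 in day 3 WT, and 15.1, 21.3 and 18.9 in day 1 Bcl3-/-, against 7.78, 6.81 and 9.64 in day 1 WT. It did not overlap between genotypes on either day, at 1.05 (SE 0.21, adjusted p = 0.00868) on day 3 and 1.19 (SE 0.21, adjusted p = 0.00341) on day 1, and it did not pass over time. Col25a1, known from amyloid plaques and motor nerves, was at or below 1.30 CPM and passed over time in WT, at 1.86 (SE 0.63, adjusted p = 0.0349), a call that was lost without replicate 2 or 3 of day 3 WT, or replicate 1, 2 or 3 of day 1 WT (adjusted p = 0.0523 to 0.15). By genotype on day 1 it was at 1.86 (SE 0.63, adjusted p = 0.0689) without overlap. That difference passed in DESeq2 (adjusted p = 0.0296), with no count filter (0.02145) and without day 3 WT replicate 1 (0.0464). Col13a1, of the neuromuscular junction, was at or below 1.37 CPM and over time in Bcl3-/- it was at 1.72 (SE 0.63, adjusted p = 0.0519). That change passed with the culture as a replicate block (adjusted p = 0.0146), in DESeq2 (0.0422), in the fit of the compared libraries alone (0.0103), and in 7 other alternatives.

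Of the multiplexins, which sit between basement membranes and fibrils, Col15a1 had 6.86, 9.00 and 7.00 CPM in day 3 Bcl3-/-, against 4.64, 5.49 and 5.79 in day 3 WT, and 2.15, 4.50 and 2.04 in day 1 Bcl3-/-, against 1.31, 1.68 and 1.25 in day 1 WT. It was higher over time by 1.41 (SE 0.27, adjusted p = 0.00193) in Bcl3-/- and 1.89 (SE 0.28, adjusted p = 0.000278) in WT. By genotype it was higher on day 1, at 1.01 (SE 0.29, adjusted p = 0.0341), where replicate 2 of Bcl3-/- was far above the other two. That call was lost without replicate 2 of day 1 Bcl3-/-, or replicate 1, 2 or 3 of day 1 WT (adjusted p = 0.0619 to 0.132), and also with the culture as a replicate block (adjusted p = 0.0633) or in the compared libraries alone (0.0724). Without day 1 Bcl3-/- replicate 2 the fold change itself was 0.55. Col18a1, the source of endostatin, was higher over time in WT, at 0.70 (SE 0.19, adjusted p = 0.0127), which was lost without replicate 1 of day 3 WT, or replicate 1 of day 1 WT (adjusted p = 0.0555 to 0.0638), and passed in no other comparison.

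The last 2 members gave some of the largest differences at low levels. Col26a1, described in the mouse from testis and ovary, had 9.27, 12.3 and 11.2 CPM in day 3 Bcl3-/-, against 4.57, 4.94 and 4.82 in day 3 WT, and 2.78, 2.86 and 2.24 in day 1 Bcl3-/-, against 0.317, 0.387 and 1.04 in day 1 WT. It was higher in Bcl3-/- by 1.19 (SE 0.25, adjusted p = 0.0121) on day 3 and 2.12 (SE 0.32, adjusted p = 0.00155) on day 1, and higher over time by 2.05 (SE 0.26, adjusted p = 0.000149) in Bcl3-/- and 2.98 (SE 0.31, adjusted p = 2.63e-05) in WT. Its day 3 genotype call was lost without replicate 2 of day 3 Bcl3-/-, or replicate 1 of day 3 WT (adjusted p = 0.0515 to 0.0576), and without day 1 WT replicate 3 its day 1 genotype difference was 2.85 and its change over time in WT 3.70. Col28a1, known in the mouse from peripheral nerve, was at 12.1 to 24.9 CPM in day 3 Bcl3-/-, against 3.55 to 5.52 in day 3 WT, and at 8.82 to 15.3 in day 1 Bcl3-/-, against 1.49 to 2.00 in day 1 WT. Even the lowest Bcl3-/- library, of day 1, was above the highest WT library, of day 3. The genotype differences were 1.94 (SE 0.29, adjusted p = 0.00262) on day 3 and 2.71 (SE 0.31, adjusted p = 0.000559) on day 1, and the change over time was 0.72 (SE 0.27, adjusted p = 0.0595) in Bcl3-/- and 1.50 (SE 0.32, adjusted p = 0.00278) in WT. In Bcl3-/- it passed with the culture as a replicate block (adjusted p = 0.00493).

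Ratios between partner chains were compared per kilobase of exon, for 6 pairs and the 4 comparisons by genotype or time, with an exact two-sided permutation test for each of the 24. With 3 libraries against 3 the exact permutation test cannot go below p = 0.1, which became 0.12 after Benjamini-Hochberg adjustment, so none could pass. Col1a1 over Col1a2, which assemble in a fixed proportion in type I collagen, was 3.54, 3.47 and 2.85 in day 3 Bcl3-/-, against 4.20, 3.74 and 3.83 in day 3 WT. On day 1 it was 4.25, 4.17 and 4.27 in Bcl3-/-, against 5.01, 5.05 and 4.87 in WT. The ratio was thus lower in Bcl3-/- than WT on each day and lower on day 3 than day 1 in each genotype, with no overlap in any of these 4 comparisons. Col5a1 over Col5a2 was 0.841 ± 0.049 (SD, n = 3) in day 3 Bcl3-/-, against 1.06 ± 0.15 in day 3 WT, and 1.28 ± 0.050 in day 1 Bcl3-/-, against 1.79 ± 0.17 in day 1 WT. It had the same order without overlap. Col4a1 over Col4a2 was 1.67 ± 0.025 in day 3 Bcl3-/-, against 1.88 ± 0.012 in day 3 WT, and 1.70 ± 0.079 in day 1 Bcl3-/-, against 2.06 ± 0.14 in day 1 WT. For the beaded chains, Col6a1 over Col6a2 was 2.60 ± 0.084 in day 3 Bcl3-/-, against 2.68 ± 0.057 in day 3 WT, and 2.88 ± 0.018 in day 1 Bcl3-/-, against 3.07 ± 0.11 in day 1 WT. Col6a3 over Col6a1 was 0.243 ± 0.019 in day 3 Bcl3-/-, against 0.238 ± 0.012 in day 3 WT, and 0.313 ± 0.0042 in day 1 Bcl3-/-, against 0.328 ± 0.012 in day 1 WT, and its genotypes overlapped on both days. Col8a1 over Col8a2 was higher in Bcl3-/- on day 3 and lower on day 1, at 1.95 ± 0.12 in day 3 Bcl3-/-, against 1.56 ± 0.20 in day 3 WT, and 2.21 ± 0.16 in day 1 Bcl3-/-, against 3.74 ± 0.86 in day 1 WT. The level of a ratio depends on the length used, but its differences between groups do not.

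**Figure D4:**
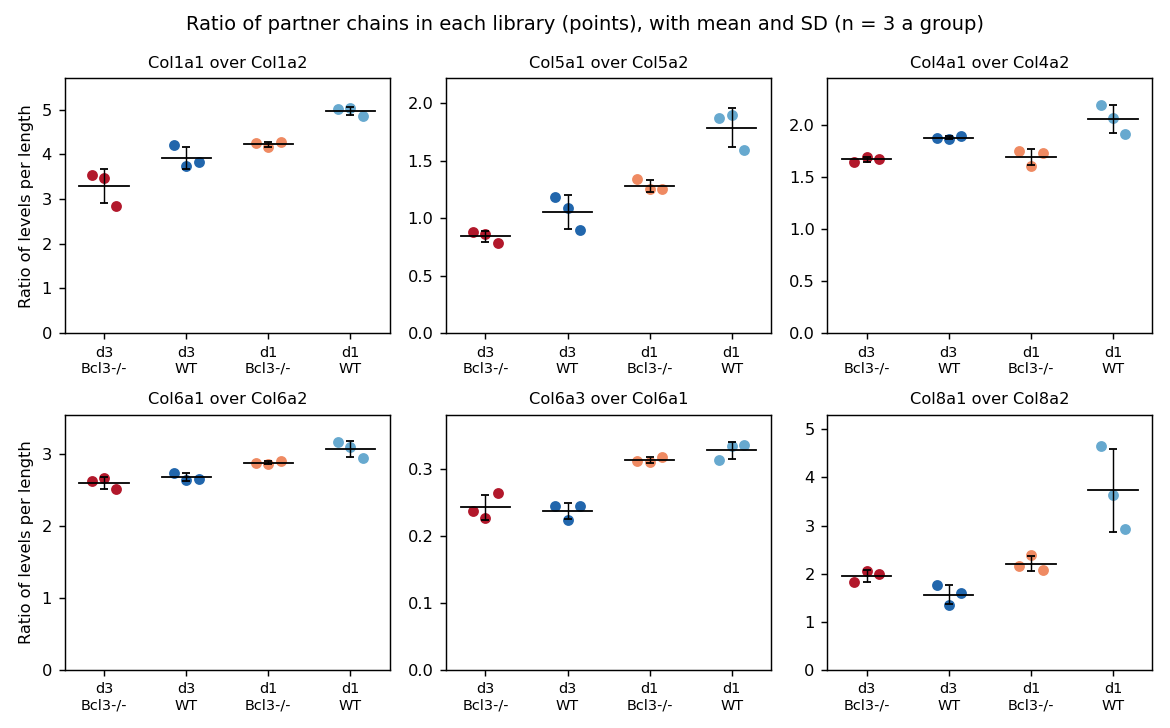
Ratio of partner chains per kilobase of exon (vertical axes, each from 0) in every library, as points, with the mean and SD of the 3 libraries of each group, in the order day 3 Bcl3-/-, day 3 WT, day 1 Bcl3-/- and day 1 WT. Col1a1 over Col1a2 averages 3.29, 3.92, 4.23 and 4.98 in that order, and Col8a1 over Col8a2 spreads widest in day 1 WT.

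The genes that process collagen were called in both directions. Of 33 genes for hydroxylation, folding, export, trimming and crosslinking, 32 were tested, and between genotypes 4 were higher and 5 lower on day 3, and 5 were higher and 4 lower on day 1. As shares of the 32 tested, these lie beside 4.78% of all genes higher and 5.6% lower on day 3, and 9.03% higher and 6.26% lower on day 1. Their median log2 fold change was 0.01 on day 3 and 0.07 on day 1, within ranges of -1.01 to 1.08 and -0.96 to 1.61. Among them Adamts2, which trims the amino end of fibrillar procollagens, was higher in Bcl3-/- on both days, at 0.61 (SE 0.15, adjusted p = 0.0209) on day 3 and 1.21 (SE 0.15, adjusted p = 0.000758) on day 1, as was Pcolce, an enhancer of carboxyl-end trimming, at 0.44 (SE 0.11, adjusted p = 0.0229) and 0.60 (SE 0.11, adjusted p = 0.0036). Serpinh1, the collagen chaperone, was higher on day 1 by 0.27 (SE 0.07, adjusted p = 0.0294). The crosslinking enzymes Loxl3 and Loxl4 were lower on day 3, at -0.81 (SE 0.14, adjusted p = 0.00446) and -1.01 (SE 0.18, adjusted p = 0.00582). These named genes are only some of those called, and none is given for the 4 lower calls on day 1. The summed level of all 33 processing genes ran from 14076 to 16056 CPM in day 3 Bcl3-/-, against 14211 to 14342 in day 3 WT, and from 14802 to 15631 in day 1 Bcl3-/-, against 14058 to 14356 in day 1 WT. Over time 11 were higher and 6 lower in Bcl3-/-, and 14 were higher and 5 lower in WT, beside 16.2% of all genes higher and 17.2% lower in Bcl3-/-, and 20.6% higher and 17.9% lower in WT. Of 9 collagen receptors, 1 was higher and 1 lower between genotypes on day 1, beside 9.03% of all genes higher and 6.26% lower. None passed on day 3. Itga11, a collagen-binding integrin chain, was higher on day 1 at 0.41 (SE 0.09, adjusted p = 0.0117), and Itgb1, its β partner, was lower at -0.56 (SE 0.11, adjusted p = 0.00524). On day 3 the 9 log2 fold changes ran from -0.81 to 0.17.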

How the data were processed

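Poly(A) RNA under 6 culture codes, each carried by a day 3 and a day 1 library, was sequenced as 12 libraries by the authors. Cells were lysed for RNA, so a shared code cannot mean a single well read on both days. The authors deposited 1 table of read counts per gene and 1 of FPKM (fragments per kilobase of exon, scaled to library size). Reads were trimmed with Trim Galore, aligned with TopHat2 to GRCm38 and counted with HTSeq, and FPKM were made with Cufflinks, per the study's methods and processing notes, which give no strand setting. The counts deposited by the authors are whole and not normalised, and the authors had compared groups with DESeq2. The FPKM values deposited by the authors list Col1a1 at 0 in 10 libraries and hold 49 entries with several values, which were left out, so FPKM was used only as an alternative. The 5 entries that name no gene took 12.3 to 14.7% of reads and were left out.

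Counts were fitted with edgeR 4.0.16 in R 4.3.3 by its quasi-likelihood test over all 16318 genes kept by filterByExpr, with TMM factors, 4 group means, 1 shared estimate of the spread and Benjamini-Hochberg adjustment over all genes. A call is an adjusted p under 0.05. CPM are on TMM-scaled library sizes. Depth ran from 20009732 to 41953891 gene counts (median 31792039), the normalisation factors lay between 0.951 and 1.05, and no pair of libraries agreed within sampling noise (smallest chi-square per gene 9.14 over 66 pairs). The code was tested on simulated data.

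The 33 members were taken by gene name, with no measured value in the rule, but the set and all lists were chosen with earlier results of these data known. All 33 members are accounted for: fold changes are given for members called, for partners of a called chain and for chains of a class that went opposite ways, and values in every library for Col1a1, Col1a2, Col3a1, Col14a1 and the members of each class called most often.

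Culture codes in the labels are shared by a day 3 and a day 1 library, which pairs the days within a genotype. Deviations from the group means correlated at 0.24 to 0.33 between paired WT libraries and at -0.16 to -0.02 between paired Bcl3-/- libraries, and the correlation within cultures used in the random-effect fit was 0.197. The fit with the culture as a replicate block, other normalisations, filters, thresholds, tools (DESeq2 1.42.0, limma 3.58.1 on log2 FPKM) and each library left out were alternatives. With the culture block, changes over time and the interaction were fitted in edgeR with the culture as a fixed effect. Genotype comparisons with that block were fitted in limma on weighted log2 counts, with the culture as a random effect. There the test changed along with the block. Levels per length used the union of GENCODE exons. Promoters came from RefSeq (GRCm38.p6), with an entry for 26 members and none for Col1a1, Col4a3, Col5a2, Col12a1, Col14a1, Col22a1 and Col26a1. Sequence features of the proteins were not analysed here.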

Additional observations from a re-analysis of the deposited data

Results flagged for a closer look

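The change of Col11a1 over time differed between the genotypes by a test of the difference itself. The log2 fold change of day 3 over day 1 was 0.58 in Bcl3-/- and 1.20 in WT, and the first minus the second was -0.62 (SE 0.12, adjusted p = 0.0337 by edgeR's quasi-likelihood test with Benjamini-Hochberg adjustment). All 6 day 3 libraries were above all 6 day 1 libraries, so the level was higher over time in both genotypes and by less in Bcl3-/-. Without any one of 9 libraries the adjusted p was 0.0661 to 0.128. The groups of 3 libraries are too small for a check of single outlying libraries.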

How the results depend on the processing

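Counts of members called moved with the size threshold, the unit, the filter and single libraries. With an absolute log2 fold change over 1, 8 members were higher and 0 lower in Bcl3-/- on day 1, 4 and 1 on day 3, 4 and 0 over time in Bcl3-/-, 10 and 0 over time in WT, and 0 lower in the interaction. On log2(FPKM + 1), 6 were higher on day 1, 1 was lower on day 3, 5 were higher over time in Bcl3-/-, 12 in WT and 0 were lower in the interaction. On log2(FPKM + 0.1), these were 9 on day 1, 4 higher and 1 lower on day 3, 5 over time in Bcl3-/- and 0 in the interaction, and with a filter on FPKM 1 was lower on day 3. With no count filter 2 members were lower on day 1 and 5 in the interaction, and with DESeq2 2 were lower on day 1. The numbers higher were 19 with no filter and 17 with DESeq2 on day 1, 9 and 8 on day 3, 14 and 14 over time in Bcl3-/-, and 19 and 19 in WT. In fits of the compared libraries alone, 2 were lower on day 1, 0 on day 3 and 0 over time in WT. With RLE normalisation, normalisation without collagens, or at least 1 CPM in 6 libraries, 1 was lower over time in Bcl3-/-. With the culture as a replicate block 3 were lower in the interaction, and the numbers of higher and lower calls were 13 and 1 on day 1, 8 and 2 on day 3, 13 and 2 over time in Bcl3-/- and 19 and 1 in WT. With the block by the number in the sample title, which the labels do not tie to a shared source across genotypes, they were 16 and 1, 10 and 2, 13 and 2, and 19 and 1. Leaving out each library gave 10 to 16 higher and 1 to 2 lower on day 1, 3 to 9 and 0 to 3 on day 3, 9 to 13 and 0 to 2 over time in Bcl3-/-, 15 to 19 and 0 to 1 in WT, and 0 to 6 lower in the interaction. The 3 higher and 0 lower on day 3 came without day 3 WT replicate 1, and the 6 in the interaction without day 1 WT replicate 3. Counts over all genes moved as well. Without day 3 WT replicate 1, 311 of 16769 genes were higher and 387 lower on day 3. With all libraries 780 and 913 of 16318 were. Without day 1 WT replicate 3, 394 of 16722 were lower in the interaction, against 155. On day 1, 734 of 34735 were higher on log2(FPKM + 1) and 1710 of 15998 with DESeq2, against 1473. On log2(FPKM + 1) the day 1 genotype calls of Col1a2, Col24a1, Col8a2, Col12a1, Col23a1, Col15a1 and Col26a1 and the day 3 calls of Col24a1, Col7a1 and Col16a1 were lost. Col6a1 over time in Bcl3-/- had no change to speak of (0.00) and turned to -0.0133 with no filter, -0.0017 in the compared libraries, -0.0762 on log2(FPKM + 1) with or without the FPKM filter, -0.0764 on log2(FPKM + 0.1), and ran from -0.0428 to 0.0608 as each library was left out (below 0 in 3, at -0.0032 and -0.0248 in the others). Col6a3 over time in WT ran from -0.261 to 0.034, the last without day 1 WT replicate 3. Of the other values for the members given with a test, 1399 kept their direction and side of the threshold, 133 lost the call and 6 gained it. Over all members tested and the 5 comparisons, a call that was otherwise not made appeared 71 times under an alternative. The cause of these changes was not tested. Depth limits what can be said of Col4a3, Col4a4, Col4a6, Col13a1, Col20a1, Col22a1 and Col25a1.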

Other observations

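The 6 collagen chains of cartilage, which lie outside the 33, did not move together. Col2a1, the main chain of cartilage fibrils, was lower in Bcl3-/- on day 3, at a log2 fold change of -1.91 (SE 0.55, adjusted p = 0.0459), although the genotypes overlapped, and it was at -1.06 (SE 0.53, adjusted p = 0.217) on day 1. Col9a2, a chain of the fibril-associated collagen of cartilage, was higher in Bcl3-/- on both days, at 1.00 (SE 0.27, adjusted p = 0.0355) on day 3 and 1.51 (SE 0.32, adjusted p = 0.00803) on day 1. Over time Col9a2 was higher by 1.86 (SE 0.28, adjusted p = 0.000463) in Bcl3-/- and 2.37 (SE 0.31, adjusted p = 0.000118) in WT, whereas Col2a1 was lower in Bcl3-/-, at -1.98 (SE 0.55, adjusted p = 0.0159). The summed level of the 6 was 276 to 350.3 CPM in day 3 Bcl3-/-, against 297 to 1472 in day 3 WT, and 676 to 973 in day 1 Bcl3-/-, against 665 to 2374 in day 1 WT. Over WT replicates 1, 2 and 3 it was 1472, 737 and 297 CPM on day 3, and 2374, 1798 and 665 on day 1. The share of the 33 chains rose in that order, at 9.33, 9.46 and 10.0%, and 4.79, 5.96 and 6.77%. In day 1 Bcl3-/- both had the same order (676, 973 and 821 CPM, 8.21, 8.67 and 8.43%). In day 3 Bcl3-/- neither pattern held, and the relation was not tested. Of 6 smooth muscle markers, 3 were lower in Bcl3-/- than WT on day 3 and 2 on day 1, beside 5.6 and 6.26% of all genes. Their summed level was 1798 to 2048 CPM in day 3 Bcl3-/-, against 2384 to 2810 in day 3 WT, and 2473 to 2600 in day 1 Bcl3-/-, against 2815 to 3095 in day 1 WT. Of 7 macrophage markers, 1 was lower in Bcl3-/- on day 3, beside 5.6% of all genes. Over time 4 were higher in Bcl3-/- and 5 in WT, beside 16.2 and 20.6% of all genes. How far the cell types that these genes mark took part in the collagen differences was not tested.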
